A study of Mus musculus with 33 samples.

Results

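GFP+ cells were compared with Thy1-SSEA1+ cells sorted from the same arm on the same day of reprogramming. GFP+ cells had switched on a green fluorescent protein reporter of Oct4, while Thy1-SSEA1+ cells had lost the fibroblast surface protein Thy1 and gained the surface sugar SSEA1 but were GFP-. Libraries were paired by the arm and day in their labels, which gave 5 pairs, or 10 of the 30 libraries whose values could be tied to a sample. The pairs were Dppa2/4 days 8, 11 and 14 and Control days 11 and 14. Values are listed below in that order of pairs. The Thy1-SSEA1+ library of Control day 8 had no GFP+ partner and was not paired.

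All libraries came from primary mouse embryonic fibroblasts with the genotype Col1a1-OSKM+/-; Rosa26-rtTA+/-; Oct4-GFP+/-. Doxycycline at 1 µg/ml switches on the 4 factors Oct4, Sox2, Klf4 and Myc (OSKM) from the Col1a1 locus in both arms, and both arms carried a lentivirus. In the Dppa2/4 arm it overexpressed the chromatin-associated proteins Dppa2 and Dppa4, and in the Control arm it was a control. The cross joined the reporter allele Pou5f1tm2Jae (B6;129S4), the transactivator rtTA*M2 at the Rosa26 locus (B6.Cg) and the tetO-driven factors at Col1a1 (B6;129S4). The labels give no Thy1 or SSEA1 state for the GFP+ gate. Each arm, day and gate was 1 library, so there were no replicates. The p-values therefore measure how alike the gates differed over 5 pairs, and nothing in the labels says that the days came from separate cultures. The GFP+ library of Control day 11 has a description that names the Thy1-SSEA1+ gate, against its title. It was used as titled. It held 323 FPKM of Nanog and 126 FPKM of Zfp42, both within the range of the other GFP+ libraries.

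In reprogramming, fibroblasts first lose mesenchymal genes, then pass through an SSEA1+ intermediate, and few of these go on to activate the endogenous pluripotency network. The network is built of transcription factors such as Nanog, Esrrb and Zfp42 (Rex1) that hold mouse pluripotent cells in the naive state. The Oct4-GFP reporter sits in the Pou5f1 locus, so GFP marks cells in which that network reads out Oct4.

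FPKM (fragments per kilobase of transcript, scaled to the library's mapped fragments) were analysed as log2(FPKM + 1), a scale that understates fold changes of low genes. The depth implied by the steps between low values was 25.7 to 35.5 M (mega) fragments in GFP+ libraries and 35.5 to 46.8 M in Thy1-SSEA1+ libraries. GFP+ was the shallower library in every pair, and the part of depth in the results was not tested. Across genes, log2 values of GFP+ libraries correlated with each other at 0.923 to 0.948. Thy1-SSEA1+ libraries correlated with each other at 0.879 to 0.934, and the libraries of a pair at 0.863 to 0.917. GFP+ libraries were thus closer to one another than to their own partners. The median standard deviation over libraries was 0.29 in GFP+ and 0.41 in Thy1-SSEA1+ on the log2 scale, and it was the larger in Thy1-SSEA1+ for 73.4% of genes.

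The sort was visible in marker RNA. Summed over Nanog, Esrrb, Zfp42, Dppa5a and Tdgf1, pluripotent markers reached 2831, 3741 and 5268 FPKM (lowest, median and highest) in GFP+ libraries, against 230, 774 and 1744 FPKM in Thy1-SSEA1+ libraries. Thy1 had 5.74, 7.37, 4.71, 9.77 and 8.88 FPKM in GFP+ cells, against 10.3, 26.5, 11.9, 12.3 and 67.2 FPKM in Thy1-SSEA1+ cells. GFP+ was the lower in each pair, and the highest GFP+ value lay under the lowest Thy1-SSEA1+ value. The log2 difference was -1.34 (SE 0.35, adjusted p = 0.0214). Without the Dppa2/4 day 11 pair it was -1.25 with an adjusted p of 0.072, and without the Dppa2/4 day 14 pair -1.39 with an adjusted p of 0.052. Thy1 RNA was far higher in Thy1+SSEA1- cells of the series, with 195 to 749 FPKM. Fut9, which makes the SSEA1 sugar, had 5.16, 8.83, 8.20, 7.84 and 7.31 FPKM in GFP+ cells and 5.26, 6.56, 15.3, 6.59 and 5.38 FPKM in Thy1-SSEA1+ cells, with overlapping ranges and an adjusted p of 0.930. Fut4, the other enzyme of that sugar, reached 0.342 FPKM in GFP+ cells and 1.15 FPKM in Thy1-SSEA1+ cells. Its log2 difference was -0.56 (SE 0.16, adjusted p = 0.0276), a call lost after quantile normalization. A gene had to reach 1 FPKM in 2 libraries to be tested, and for Fut4 only Thy1-SSEA1+ libraries did so. That rule favours a lower GFP+ value for it.

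Markers of other cell types were mostly low in both gates. The 7 fibroblast markers, Thy1, collagens and matrix genes among them, summed to 26.4, 36.1 and 82.2 FPKM in GFP+ libraries, against 81.9, 146 and 409 FPKM in Thy1-SSEA1+ libraries. Keratinocyte markers Krt5, Krt14, Trp63 and Ivl summed to at most 0.241 FPKM in GFP+ and 2.62 FPKM in Thy1-SSEA1+ libraries. Endothelial markers summed to 0.964 to 2.76 FPKM in GFP+ and 4.70 to 13.9 FPKM in Thy1-SSEA1+ libraries, nearly all of it Tek. Trophoblast markers summed to 0.609 to 1.68 FPKM in GFP+ and 2.41 to 9.11 FPKM in Thy1-SSEA1+ libraries. Immune markers, mostly Cd68, summed to 11.3 to 59.0 FPKM in GFP+ and 7.94 to 82.9 FPKM in Thy1-SSEA1+ libraries. Primitive endoderm markers overlapped likewise, at 0.862 to 5.20 FPKM in GFP+ and 0.751 to 5.68 FPKM in Thy1-SSEA1+ libraries. Muscle markers, nearly all of them Des, summed to 16.7 to 33.9 FPKM in GFP+ and 6.19 to 19.12 FPKM in Thy1-SSEA1+ libraries, while Myod1 and Myog stayed at or below 0.209 FPKM. The part of other cells in the results was not tested. In bulk samples such as these, fewer cells of a type and less RNA per cell cannot be told apart.

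The test covered 15347 genes, and in GFP+ cells 2988 of them (19.5%) were higher and 3975 (25.9%) lower at an adjusted p of 0.05 (limma with Benjamini-Hochberg adjustment), 45.4% in all. The median log2 difference of all genes was -0.06. Of the genes called, 94.5% moved the same way in all 5 pairs. At least a 2-fold change was passed by 634 genes (4.13%) that were higher and 1618 (10.5%) that were lower. At 4-fold the counts were 110 and 312, so the large differences were mostly losses in GFP+ cells. The split depended on scaling and on low genes: 42.9% of called genes were higher as deposited, 54.4% after quantile normalization, which moved the median gene by 0.12, and 50.2% where the mean had to reach 5 FPKM (2391 higher and 2375 lower). A gene was tested where 2 of the 10 libraries reached 1 FPKM. No GFP+ library did so for 1044 genes and no Thy1-SSEA1+ library for 306, and the filter leans those towards the gate that passed it. Of the other 13997 genes 2825 were higher and 3324 lower. No gene called in both fits changed direction, nor did any of the 380 called genes of the lists below. Without the Control day 11 pair 2709 genes were higher and 3699 lower, and without the Dppa2/4 day 11 pair 1965 and 2583. A gene list is to be read against these shares, and one with about 45.4% of its members called shows nothing of its own.

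**Figure D1:**
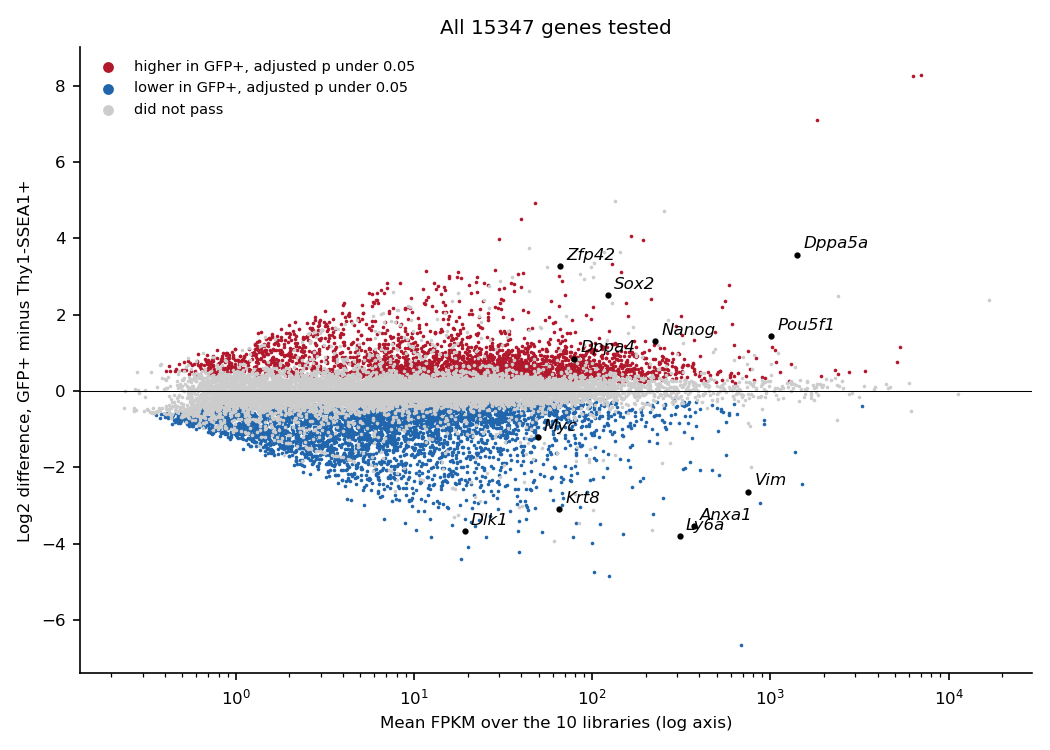
Log2 difference of GFP+ minus Thy1-SSEA1+ cells (vertical axis) against mean FPKM over the 10 libraries (horizontal log axis), 1 point per gene tested. The 2988 genes higher and 3975 genes lower at an adjusted p of 0.05 are coloured, and the cloud reaches further below 0 than above it.

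Nanog, Sox2 and Zfp42 are shown with the 250 bases before their RefSeq start sites (GRCm38.p6), because each was higher in GFP+ cells and each window holds 7 letters of the octamer read by Oct4. Aldh1a1, which makes retinoic acid from retinal, was lower in GFP+ cells, and its window holds the letters read by AP-1. Capitals mark ATGCAAA or its complement TTTGCAT in the first 3, and TGAGTCA or its complement TGACTCA in the last. The windows lie at chr6:122707239-122707488 (plus strand), chr3:34649745-34649994 (plus strand), chr8:43307010-43307259 (minus strand) and chr19:20492333-20492582 (plus strand), all printed 5′ to 3′. The motifs begin 75, 99, 185 and 57 bases before the start site.
Nanog: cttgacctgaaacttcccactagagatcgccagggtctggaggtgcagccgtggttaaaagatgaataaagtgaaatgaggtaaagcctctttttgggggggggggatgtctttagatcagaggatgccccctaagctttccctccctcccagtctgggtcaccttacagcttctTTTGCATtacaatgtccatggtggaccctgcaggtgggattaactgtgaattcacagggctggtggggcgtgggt
Sox2: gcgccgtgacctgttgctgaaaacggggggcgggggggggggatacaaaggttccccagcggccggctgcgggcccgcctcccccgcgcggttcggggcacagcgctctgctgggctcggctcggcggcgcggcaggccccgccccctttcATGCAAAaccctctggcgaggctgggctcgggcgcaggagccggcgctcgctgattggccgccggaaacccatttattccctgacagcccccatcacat
Zfp42: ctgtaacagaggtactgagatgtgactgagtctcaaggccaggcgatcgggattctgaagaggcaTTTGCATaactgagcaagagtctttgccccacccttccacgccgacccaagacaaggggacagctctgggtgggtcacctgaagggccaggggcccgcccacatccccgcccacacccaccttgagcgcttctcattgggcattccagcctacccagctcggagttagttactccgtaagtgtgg
Aldh1a1: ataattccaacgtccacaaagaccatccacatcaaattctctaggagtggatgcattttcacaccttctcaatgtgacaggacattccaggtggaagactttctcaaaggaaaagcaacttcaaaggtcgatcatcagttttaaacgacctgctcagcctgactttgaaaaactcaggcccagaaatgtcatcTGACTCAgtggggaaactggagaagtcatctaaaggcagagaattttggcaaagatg

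These letters are common, and the genes shown were chosen after their values were seen. On either strand, the octamer letters were in 4.65% of 27025 promoters of this length and in 4.04% of the 10478 promoters of genes tested. They were in 5.88% of 425 promoters of genes higher by at least 2-fold and in 5.44% of 1159 promoters of genes lower by at least 2-fold. The shares in higher and lower genes were thus alike. The AP-1 letters were in 5.16% of all promoters, in 4.02% of those of genes tested, in 3.06% of those higher and in 7.33% of those lower. A match is a description of the letters, and no binding was measured.

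The naive pluripotency factors had the largest share of members higher in GFP+ cells among the 31 lists. Of 25 tested, 22 were higher, none lower, and Tcf7l1, Tcf3 and Zfp281 did not pass. The median log2 difference was 1.89, against -0.06 for all genes, and 21 of the 25 were higher in all 5 pairs. For 1 of the 25 no Thy1-SSEA1+ library reached 1 FPKM, so the filter favours a higher GFP+ value, and it was higher. Of the other 24 genes 21 were called higher. Zfp42 (chr8:43295063-43306980), a marker of the naive state, had 78.8, 146, 103, 126 and 127 FPKM in GFP+ cells, against 1.17, 9.80, 17.7, 15.3 and 31.0 FPKM in Thy1-SSEA1+ cells. The gates did not overlap, and the Thy1-SSEA1+ library of Dppa2/4 day 8 was nearly without Zfp42. Its log2 difference was 3.28 (SE 0.45, adjusted p = 0.00268). Esrrb (chr12:86361117-86521628), an orphan nuclear receptor that sustains self-renewal, had 132, 149, 115, 198 and 199 FPKM in GFP+ cells, against 12.1, 22.9, 21.4, 81.9 and 77.8 FPKM in Thy1-SSEA1+ cells. Thy1-SSEA1+ cells of the Control arm held more Esrrb than those of the Dppa2/4 arm, and all stayed under every GFP+ value. The log2 difference was 2.20 (SE 0.32, adjusted p = 0.00322).

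Nanog (chr6:122707489-122714633), a core factor of the network, was already well expressed before GFP. It had 360.3, 323, 259.8, 323 and 317 FPKM in GFP+ cells, against 123, 104, 74.1, 209 and 161 FPKM in Thy1-SSEA1+ cells, again without overlap. The log2 difference was 1.31 (SE 0.19, adjusted p = 0.00293), smaller than that of Zfp42. In the Thy1-SSEA1- and Thy1+SSEA1- cells of the series Nanog ranged from 0.646 to 29.4 FPKM. Tbx3, a T-box factor that supports the naive state, had 30.5, 75.5, 61.5, 69.4 and 81.1 FPKM in GFP+ cells, against 1.76, 7.13, 9.72, 9.69 and 19.6 FPKM in Thy1-SSEA1+ cells, a log2 difference of 2.80 (SE 0.22, adjusted p = 0.000925). Otx2, better known from the primed state, was also higher, with 25.3, 52.9, 22.1, 71.4 and 81.9 FPKM in GFP+ cells against 0.388, 11.4, 4.90, 12.9 and 34.7 FPKM in Thy1-SSEA1+ cells. GFP+ was higher in each pair though the ranges overlapped, and the log2 difference was 2.39 (SE 0.40, adjusted p = 0.00517).

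Other factors of this group moved by similar amounts. The log2 differences were 2.36 for Prdm14, 2.23 for Tfcp2l1, 2.21 for Nr0b1 and 2.11 for Klf2, each higher in all 5 pairs. Tfcp2l1 is a target of LIF signalling, and Prdm14 holds back lineage genes. Nr5a2 had 9.33, 12.5, 10.5, 14.3 and 12.2 FPKM in GFP+ cells and 0.378, 1.27, 1.72, 16.1 and 5.10 FPKM in Thy1-SSEA1+ cells, and it was higher in every pair but Control day 11. Tcf7l1, a repressor of the naive genes, had 52.7, 27.8, 18.1, 33.1 and 25.1 FPKM in GFP+ cells and 54.8, 27.8, 19.8, 63.3 and 41.9 FPKM in Thy1-SSEA1+ cells, with a log2 difference of -0.36 (SE 0.16, adjusted p = 0.114). The median difference of the 25 factors was 2.49, 2.35 and 2.02 in the Dppa2/4 pairs of days 8, 11 and 14, and 1.26 and 1.28 in the Control pairs of days 11 and 14.

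**Figure D2:**
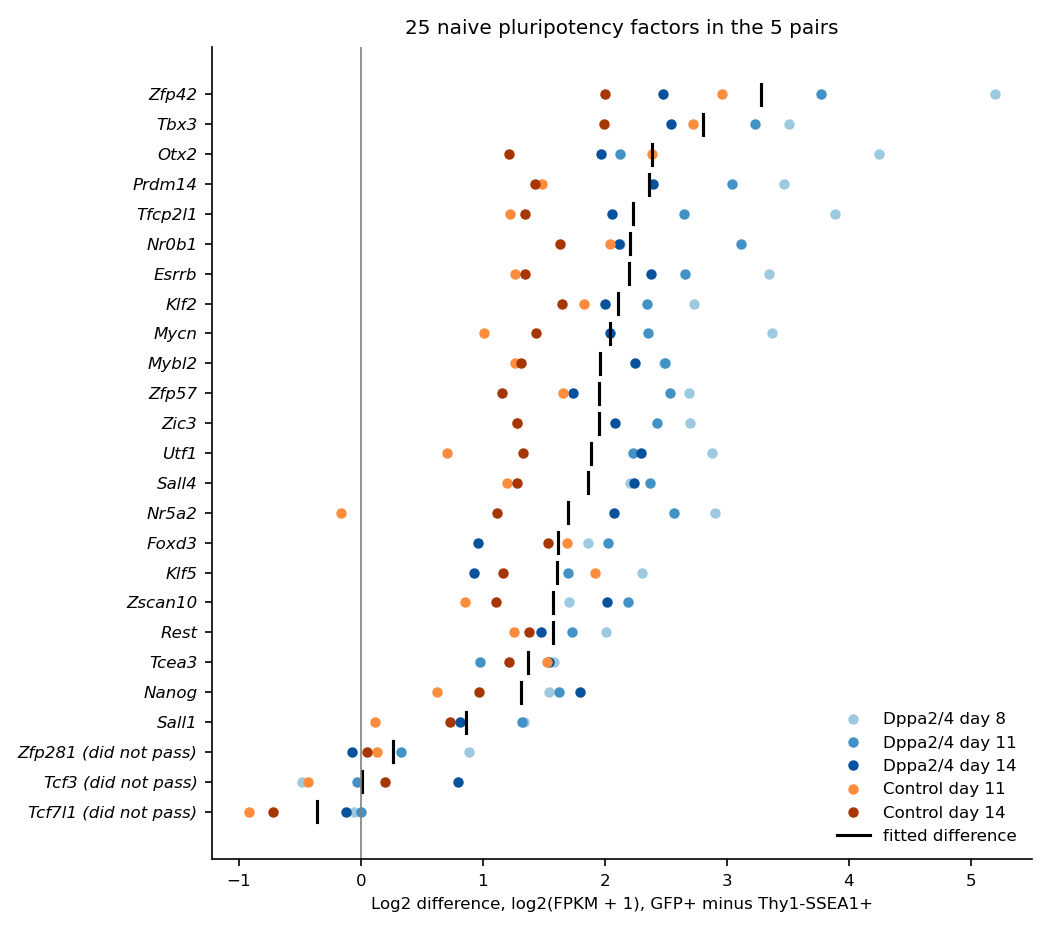
Log2 difference of GFP+ minus Thy1-SSEA1+ cells (axis of values) for the 25 naive pluripotency factors, 1 point per pair of arm and day. Most points lie above 0, with Zfp42 the highest by the fitted difference of 3.28 and Tcf7l1 the lowest at -0.36, and the Control pairs tend to sit nearer 0 than the Dppa2/4 pairs.

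The reprogramming factors themselves were measured as transgene and endogenous RNA together. Pou5f1 (Oct4), whose locus carries the reporter, had 1518, 1079, 1264, 1458 and 1838 FPKM in GFP+ cells, against 491, 312, 315, 911 and 881 FPKM in Thy1-SSEA1+ cells. That direction follows from the sort and is no independent finding. Sox2, the partner of Oct4 on DNA, had 146, 234, 185, 237 and 216 FPKM in GFP+ cells, against 10.9, 28.4, 32.3, 74.7 and 61.1 FPKM in Thy1-SSEA1+ cells. Its gates did not overlap, and the log2 difference was 2.51 (SE 0.30, adjusted p = 0.00184). Klf4 had 53.6, 82.9, 47.1, 96.9 and 66.3 FPKM in GFP+ cells and 29.5, 21.3, 10.6, 61.8 and 30.8 FPKM in Thy1-SSEA1+ cells, higher in every pair with ranges that overlapped, and a log2 difference of 1.31 (SE 0.24, adjusted p = 0.00630). Myc, a driver of growth, was the one factor that was lower, with 44.3, 23.6, 11.2, 31.1 and 22.8 FPKM in GFP+ cells against 110.0, 52.6, 13.9, 128 and 57.5 FPKM in Thy1-SSEA1+ cells. In the Dppa2/4 arm both gates held the least on day 14, and the log2 difference was -1.20 (SE 0.23, adjusted p = 0.00736).

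Among 25 other pluripotency genes 18 were higher, 1 was lower and 6 did not pass, with a median of 1.20. Dppa5a, an RNA-binding protein of pluripotent cells, had 1422, 2469, 2360.3, 2224 and 3639.7 FPKM in GFP+ cells, against 12.6, 168, 497, 216 and 1140.0 FPKM in Thy1-SSEA1+ cells. It was among the 10 most increased genes, and in Thy1-SSEA1+ cells it was higher on day 14 than on day 11 in both arms. The log2 difference was 3.57 (SE 0.69, adjusted p = 0.00814). Dnmt3l, the cofactor of the de novo DNA methyltransferases, had 103, 178, 247, 226 and 329 FPKM in GFP+ cells against 1.03, 11.9, 47.7, 21.3 and 118 FPKM in Thy1-SSEA1+ cells, a log2 difference of 3.33 (SE 0.57, adjusted p = 0.00526). Tcl1, a cofactor of the kinase Akt, had a log2 difference of 3.16, and Tdgf1 (Cripto), the Nodal coreceptor, one of 2.19. Alpl, the alkaline phosphatase long used to stain colonies, did not separate the gates, with 111, 119, 159, 124 and 167 FPKM in GFP+ cells and 96.1, 95.5, 143, 116 and 163 FPKM in Thy1-SSEA1+ cells. Its log2 difference was 0.16 (SE 0.07, adjusted p = 0.115). The surface tetraspanin Cd9 was the lower one at -0.46, and the secreted Spp1 did not pass at -0.92.

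**Figure D3:**
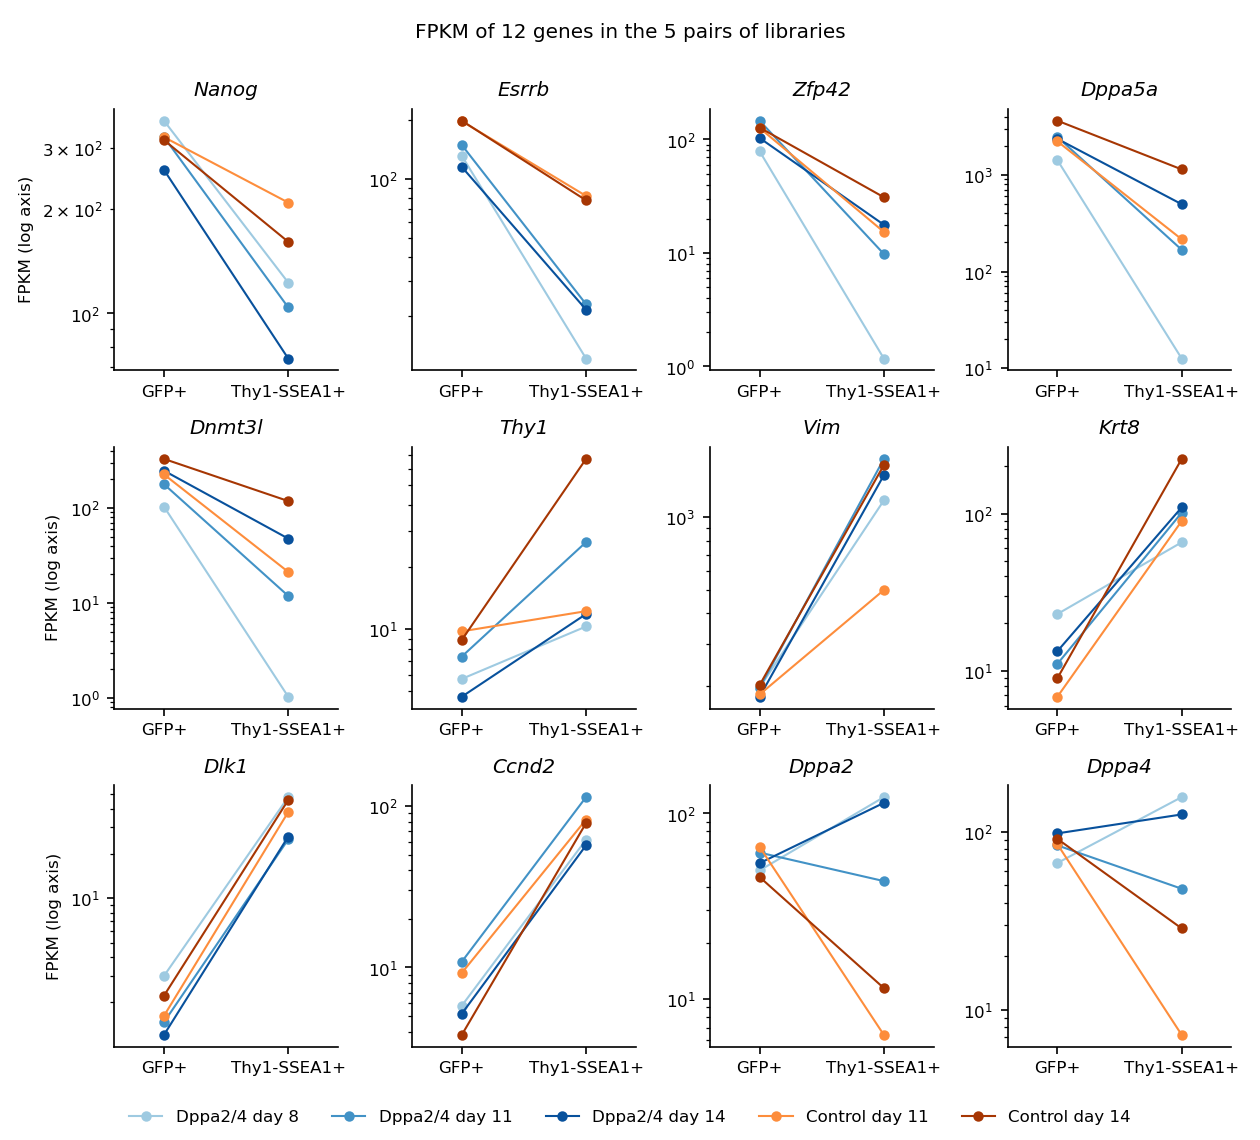
FPKM (log axis) of 12 genes in GFP+ (left) and Thy1-SSEA1+ (right) libraries, with a line joining the libraries of a pair. Lines for Nanog, Esrrb, Zfp42, Dppa5a and Dnmt3l run higher at GFP+ in all 5 pairs and those for Thy1, Vim, Krt8, Dlk1 and Ccnd2 lower. Lines for Dppa2 and Dppa4 run higher at GFP+ in both Control pairs and either way in the Dppa2/4 pairs.

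Dppa2 and Dppa4 themselves converged on a narrow range in GFP+ cells. Dppa2 had 49.3, 61.5, 54.0, 66.1 and 45.4 FPKM in GFP+ cells, against 123, 43.2, 114, 6.40 and 11.4 FPKM in Thy1-SSEA1+ cells. The Control libraries of the Thy1-SSEA1+ gate were the low ones, and the Dppa2/4 libraries of that gate straddled the GFP+ range. Dppa4 had 66.7, 83.8, 97.8, 85.0 and 91.1 FPKM in GFP+ cells, against 156, 47.8, 125, 7.23 and 28.6 FPKM in Thy1-SSEA1+ cells, with the same split by arm. The mean log2 difference of Dppa2 was -0.62 in the Dppa2/4 arm and 2.54 in the Control arm, and that of Dppa4 was -0.26 in the Dppa2/4 arm and 2.51 in the Control arm. Over all pairs neither passed, with adjusted p-values of 0.467 for Dppa2 and 0.306 for Dppa4. Nor did the limma term of Dppa2/4 arm minus Control arm pass, with adjusted p-values of 0.364 for Dppa2 and 0.423 for Dppa4. FPKM counts lentiviral and endogenous RNA together.

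Genes of the fibroblast and mesenchymal state were the counterpart. Of 33 tested 30 were lower, none higher, and Cnn1, Zeb1 and Fn1 did not pass, with a median of -1.70. For 5 of the 33 no GFP+ library reached 1 FPKM, and 4 of these were lower. Of the other 28 genes 26 were lower. Vim, the mesenchymal intermediate filament, had 197, 197, 181, 185 and 202 FPKM in GFP+ cells, against 1173, 1742, 1492, 499.5 and 1643 FPKM in Thy1-SSEA1+ cells. GFP+ libraries sat within a narrow band, and the lowest Thy1-SSEA1+ value, of Control day 11, was still above it. The log2 difference was -2.64 (SE 0.26, adjusted p = 0.00124). The pair medians of this list ranged between -0.80 in Control day 11 and -2.99 in Control day 14, so the size of the loss varied among pairs more than its direction. The summed fibroblast markers given above were likewise lower in the GFP+ library of each pair.

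Surface proteins used to stage reprogramming were mostly lower: 12 of 19 lower and 4 higher, with a median of -1.23. Ly6a (Sca-1) had 57.2, 54.9, 35.3, 28.1 and 22.1 FPKM in GFP+ cells, against 498, 824, 767, 223 and 592 FPKM in Thy1-SSEA1+ cells, a log2 difference of -3.80 (SE 0.28, adjusted p = 0.000861). Cd44, the hyaluronan receptor, had 4.63, 5.57, 3.88, 3.71 and 2.11 FPKM in GFP+ cells against 45.6, 56.7, 49.1, 12.5 and 34.0 FPKM in Thy1-SSEA1+ cells, a log2 difference of -2.91 (SE 0.29, adjusted p = 0.00131). Neither gene overlapped between the gates, and for both the lowest Thy1-SSEA1+ value was that of Control day 11. Cd34 and Cd24a were lower by -2.89 and -2.66 on the log2 scale. Pecam1, an adhesion protein shared by endothelium and pluripotent cells, was the most increased of this list, with 17.1, 22.6, 65.0, 23.5 and 48.3 FPKM in GFP+ cells against 1.06, 1.88, 9.06, 3.16 and 18.3 FPKM in Thy1-SSEA1+ cells and a log2 difference of 2.56 (SE 0.26, adjusted p = 0.00136). The endothelial markers Cdh5 and Kdr were at or below 0.687 FPKM in every library. Kit, the stem cell factor receptor, was higher with a log2 difference of 1.42.

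Epithelial genes did not move as a block. Of 26 tested, 14 were lower, 1 was higher and 11 did not pass, with a median of -0.51. The keratins of simple epithelium were the most decreased. Krt19 had 6.81, 5.48, 10.3, 1.30 and 6.97 FPKM in GFP+ cells, against 41.6, 86.2, 141, 38.2 and 183 FPKM in Thy1-SSEA1+ cells, and Krt8 had 22.97, 11.1, 13.3, 6.85 and 8.98 FPKM in GFP+ cells, against 65.6, 101, 109, 89.6 and 223 FPKM in Thy1-SSEA1+ cells. No GFP+ library reached the Thy1-SSEA1+ range of either keratin, and the log2 differences were -3.69 (SE 0.28, adjusted p = 0.000913) and -3.10 (SE 0.39, adjusted p = 0.00212). Cdh1 (E-cadherin) did not separate the gates, with 96.8, 106, 127, 119.9 and 127 FPKM in GFP+ cells and 76.1, 109, 125, 148 and 122 FPKM in Thy1-SSEA1+ cells. Epcam was lower by a small margin, -0.54 (SE 0.12, adjusted p = 0.0118), and the desmosome genes Dsp and Dsc2 by -2.22 and -2.33. Of the 16 genes of the keratinocyte list 8 were tested. For 3 of these no GFP+ library reached 1 FPKM, so that they entered through Thy1-SSEA1+ cells alone and the filter favours a lower GFP+ value. The other 5 were lower too, among them Perp, a desmosome-associated membrane protein, at -1.51 (SE 0.29, adjusted p = 0.00766), and Sfn (14-3-3 sigma) at -0.69 (SE 0.21, adjusted p = 0.0374). The defining keratinocyte genes Krt5 and Trp63 were at or below 0.537 FPKM in every library.

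**Figure D4:**
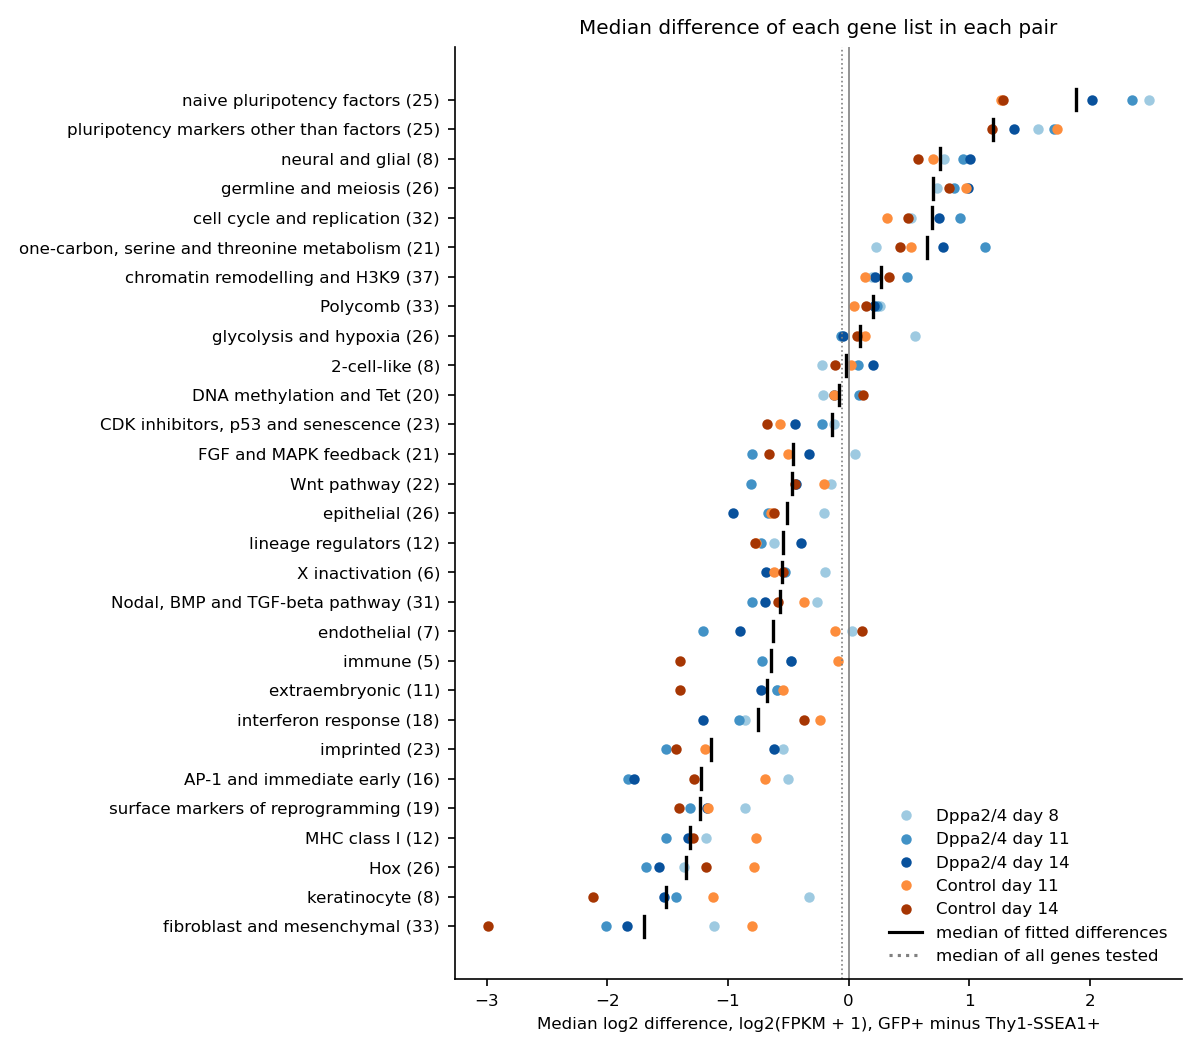
Median log2 difference of GFP+ minus Thy1-SSEA1+ cells for 29 gene lists, with 1 point per pair and a bar at the median of the fitted differences. The dotted line marks the median of all genes (-0.06); naive factors stand highest with a bar at 1.89 and fibroblast genes lowest at -1.70.

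Hox genes, which set position along the body axis, were lower. Of 26 tested 25 were lower and none higher, with a median of -1.34. For 12 of these no GFP+ library reached 1 FPKM, so that they were tested through Thy1-SSEA1+ cells alone, and 13 of the other 14 were lower. Hoxa10, which patterns the posterior axis, had 10.6, 3.28, 2.95, 1.44 and 0.901 FPKM in GFP+ cells against 27.4, 31.8, 22.1, 13.5 and 13.3 FPKM in Thy1-SSEA1+ cells, a log2 difference of -2.45 (SE 0.25, adjusted p = 0.00135). GFP+ cells of Dppa2/4 day 8 had the most of it, and no GFP+ library reached the lowest Thy1-SSEA1+ value. Of 12 lineage regulators tested 7 were lower, none higher and 5 did not pass, with a median of -0.54, among them the neural intermediate filament Nes at -1.87. Of 11 extraembryonic genes 6 were lower, none higher and 5 did not pass. Endothelial genes gave 2 higher and 1 lower of 7 tested, and muscle genes 1 higher of 2. Of 8 neural and glial genes tested 5 were higher and 1 was lower, the microtubule protein Map2, which had 5.69, 2.58, 2.35, 2.90 and 0.876 FPKM in GFP+ cells against 9.14, 8.38, 10.1, 8.49 and 5.31 FPKM in Thy1-SSEA1+ cells and a log2 difference of -1.35 (SE 0.19, adjusted p = 0.00285). Stmn2, a microtubule regulator of neurons, had 129, 143, 196, 169 and 269 FPKM in GFP+ cells against 35.4, 30.3, 66.0, 73.5 and 129 FPKM in Thy1-SSEA1+ cells, and the oligodendrocyte factor Olig2 had 7.82, 8.36, 6.44, 10.0 and 9.37 FPKM in GFP+ cells against 0.284, 0.861, 1.05, 3.35 and 3.72 FPKM in Thy1-SSEA1+ cells. Their log2 differences were 1.57 (SE 0.18, adjusted p = 0.00161) and 1.89 (SE 0.26, adjusted p = 0.00271). The summed markers Tubb3, Rbfox3, Gfap and Sox10 were 5.36 to 9.86 FPKM in GFP+ libraries and 3.02 to 8.89 FPKM in Thy1-SSEA1+ libraries, mostly Tubb3. Without Tubb3 the means ran lower in GFP+ cells, with Gfap at 0.140 FPKM in GFP+ and 1.31 FPKM in Thy1-SSEA1+ cells, Rbfox3 at 0.226 FPKM in GFP+ and 0.520 FPKM in Thy1-SSEA1+ cells, and Sox10 at 0.0810 FPKM in GFP+ and 0.336 FPKM in Thy1-SSEA1+ cells.

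Germline genes were higher in 13 of 26 tested and lower in 1, with a median of 0.70. Tdrd12, a piRNA factor, had 19.2, 29.6, 18.5, 28.6 and 32.9 FPKM in GFP+ cells, against 0.865, 2.03, 3.33, 3.53 and 10.1 FPKM in Thy1-SSEA1+ cells, without overlap, and a log2 difference of 2.65 (SE 0.28, adjusted p = 0.00148). Rpl10l, a testis ribosomal protein, was higher by 2.25, the cohesin subunit Stag3 by 1.52 and the germ cell RNA-binding protein Dazl by 1.41. Rpl10l is a near copy of Rpl10, and the authors' counting could split reads between them. The meiotic cohesin Rec8 was the lower gene at -1.20. None of 8 tested genes of the 2-cell-like list passed, and the summed markers Zscan4c, Zscan4d, Zfp352 and Tcstv3 stayed at 0.107 to 4.02 FPKM in GFP+ and 0.0447 to 3.03 FPKM in Thy1-SSEA1+ libraries.

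DNA methylation enzymes split by family member. Of 20 tested 7 were higher, 6 lower and 7 did not pass, with a median of -0.08. Tet1, which oxidizes methylcytosine, had 43.3, 59.8, 56.3, 59.3 and 31.1 FPKM in GFP+ cells, against 7.08, 7.56, 12.5, 22.5 and 15.8 FPKM in Thy1-SSEA1+ cells, and Tet2 was higher by 1.37. Tet3, of the same enzyme family, had 0.675, 0.711, 0.652, 0.410 and 0.507 FPKM in GFP+ cells, against 4.95, 3.54, 2.71, 2.58 and 2.11 FPKM in Thy1-SSEA1+ cells. Neither Tet1 nor Tet3 overlapped between the gates, and the log2 differences were 1.93 (SE 0.28, adjusted p = 0.00327) and -1.36 (SE 0.15, adjusted p = 0.00160). No GFP+ library reached 1 FPKM of Tet3. It was thus tested through Thy1-SSEA1+ cells alone, and the filter favours a lower GFP+ value for it. The de novo methyltransferase Dnmt3b was higher by 1.52, Dnmt3a by 0.67, and the maintenance pair Uhrf1 and Dnmt1 by 0.86 and 0.51. Zbtb4, a reader of methylated DNA, was lower at -1.75. These directions held after quantile normalization.

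Polycomb genes likewise split, with 16 of 33 higher, 7 lower and a median of 0.20. Mtf2, an accessory subunit of Polycomb repressive complex 2, had 88.0, 148, 123, 103 and 79.1 FPKM in GFP+ cells, against 20.4, 38.7, 44.4, 46.2 and 36.1 FPKM in Thy1-SSEA1+ cells, a log2 difference of 1.53 (SE 0.17, adjusted p = 0.00153). Its catalytic subunit Ezh2 and core subunit Eed were higher by 0.95 and 1.05. Chromobox proteins of Polycomb repressive complex 1 went opposite ways. Cbx7 had 35.7, 39.8, 57.4, 50.7 and 66.1 FPKM in GFP+ cells, against 11.5, 13.3, 20.6, 21.1 and 30.9 FPKM in Thy1-SSEA1+ cells, and Cbx8 had 8.48, 8.16, 32.3, 5.19 and 13.8 FPKM in GFP+ cells, against 40.5, 43.0, 35.7, 30.6 and 47.1 FPKM in Thy1-SSEA1+ cells. Cbx7 was higher and Cbx8 lower in every pair, and Cbx8 was least reduced in Dppa2/4 day 14. The log2 differences were 1.36 (SE 0.10, adjusted p = 0.000861) and -1.72 (SE 0.33, adjusted p = 0.00796). Kdm2b was higher by 1.18 and Phc2 lower by -1.15.

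Of 37 other chromatin remodelling and H3K9 genes 15 were higher, 4 lower and 18 did not pass, with a median of 0.26. Smarca2 (Brm), an ATPase of the BAF remodelling complex, had 5.09, 5.05, 3.52, 3.21 and 2.20 FPKM in GFP+ cells, against 41.7, 50.4, 42.2, 19.06 and 22.7 FPKM in Thy1-SSEA1+ cells. The gates were far apart, and the log2 difference was -2.86 (SE 0.16, adjusted p = 0.000638). The paralogous BAF subunits Smarcc1 and Smarcc2 differed in direction, at 0.97 (SE 0.12, adjusted p = 0.00205) for Smarcc1 and -0.99 (SE 0.11, adjusted p = 0.00163) for Smarcc2. Smarcc1 had 89.6 ± 19.9 FPKM in GFP+ cells and 46.6 ± 16.7 FPKM in Thy1-SSEA1+ cells (mean ± SD, n = 5 libraries each). Smarcc2 had 4.66 ± 0.359 FPKM in GFP+ cells and 10.3 ± 1.62 FPKM in Thy1-SSEA1+ cells (same measures). Chaf1b, a subunit of the histone chaperone CAF-1, was higher by 1.23.

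Imprinted genes were mostly lower: 16 of 23 lower and 2 higher, with a median of -1.14. Dlk1, a Notch-family ligand of the Dlk1-Meg3 locus, had 3.004, 1.47, 1.21, 1.62 and 2.21 FPKM in GFP+ cells, against 48.0, 24.9, 26.0, 38.0 and 45.8 FPKM in Thy1-SSEA1+ cells. The spread was small in both gates, and the log2 difference was -3.68 (SE 0.11, adjusted p = 0.000274). Meg3 of the same locus remained expressed in GFP+ cells, with 18.2, 13.0, 26.2, 8.41 and 11.4 FPKM against 27.0, 46.3, 39.5, 24.1 and 31.8 FPKM in Thy1-SSEA1+ cells and a log2 difference of -1.14 (SE 0.21, adjusted p = 0.00639). The neighbours Igf2 and H19 had log2 differences of -2.60 and -1.69. For both, the Dppa2/4 day 8 pair differed little, with Igf2 at 8.80 FPKM in GFP+ and 9.82 FPKM in Thy1-SSEA1+ cells, and H19 at 227 FPKM in GFP+ and 218 FPKM in Thy1-SSEA1+ cells. Nnat was lower by -2.63. Phlda2 was higher, at 1.16.

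Of 550 X-linked genes in the test 80 (14.5%) were higher and 164 (29.8%) lower, with a median of -0.15, and the autosome medians ran between -0.15 and 0.00. Xist, the RNA that coats an inactive X, had 0.0880, 0.951, 0.883, 0.769 and 0.341 FPKM in GFP+ cells and 0.0754, 2.67, 3.91, 0.221 and 1.63 FPKM in Thy1-SSEA1+ cells, and its adjusted p was 0.182. The labels do not give the sex of the embryos.

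Most cell cycle genes were higher in GFP+ cells, and the D cyclins Ccnd1 and Ccnd2 were lower. Of 32 tested 22 were higher, 2 lower and 8 did not pass, with a median of 0.69. Ccnd2, a D cyclin that drives entry into S phase, had 5.80, 10.8, 5.17, 9.25 and 3.83 FPKM in GFP+ cells, against 61.8, 113, 57.0, 82.3 and 78.3 FPKM in Thy1-SSEA1+ cells, a log2 difference of -3.35 (SE 0.16, adjusted p = 0.000502). Ccnd1 was lower as well, at -2.15 (SE 0.13, adjusted p = 0.000769). Among genes of DNA replication, Mcm3 of the replicative helicase had 158, 135, 124, 179 and 179 FPKM in GFP+ cells, against 94.7, 34.8, 40.9, 123 and 93.6 FPKM in Thy1-SSEA1+ cells, higher in each pair, and a log2 difference of 1.14 (SE 0.22, adjusted p = 0.00744). The proliferation marker Mki67 did not pass, with -0.21.

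Of 23 CDK inhibitor, p53 and senescence genes 11 were lower, 2 higher and 10 did not pass, with a median of -0.14. Cdkn2b, Cdkn2a and Cdkn1a, all brakes on the cell cycle, were lower by -2.10, -1.57 and -1.47. Cdkn2a had 11.9, 11.5, 7.90, 14.2 and 18.0 FPKM in GFP+ cells, against 26.8, 36.4, 29.7, 42.1 and 69.3 FPKM in Thy1-SSEA1+ cells, without overlap, and an adjusted p of 0.000984. Trp53 was higher, with 233, 191, 149, 289 and 256 FPKM in GFP+ cells against 141, 65.5, 49.3, 202 and 174 FPKM in Thy1-SSEA1+ cells, higher in every pair, and a log2 difference of 0.98 (SE 0.20, adjusted p = 0.00918).

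AP-1 and immediate early genes were lower in 14 of 16 tested and higher in none, with a median of -1.22. Fosl2 had 1.32, 3.74, 1.48, 1.41 and 0.855 FPKM in GFP+ cells, against 7.02, 29.7, 19.3, 3.12 and 10.2 FPKM in Thy1-SSEA1+ cells, a log2 difference of -2.18 (SE 0.33, adjusted p = 0.00375). Fos varied widely among days. It had 2.92, 4.72, 66.5, 4.13 and 45.9 FPKM in GFP+ cells, against 14.2, 47.8, 177, 13.1 and 99.4 FPKM in Thy1-SSEA1+ cells, so that GFP+ cells of day 14 held more Fos than Thy1-SSEA1+ cells of day 8 or Control day 11. GFP+ was nevertheless the lower in each pair, with a log2 difference of -1.80 (SE 0.29, adjusted p = 0.00419). Its partner Jun was lower by -1.75 (SE 0.19, adjusted p = 0.00157).

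Genes of MHC class I were mostly lower in GFP+ cells, and those of the interferon response were lower in part. Of 12 MHC class I genes tested 9 were lower and none higher, with a median of -1.31. For 2 of the 12 no GFP+ library reached 1 FPKM, and both were lower. Of the other 10 genes 7 were lower. H2-D1, a class I heavy chain, had 7.55, 9.24, 8.76, 6.09 and 8.52 FPKM in GFP+ cells, against 79.3, 72.1, 78.2, 10.8 and 52.8 FPKM in Thy1-SSEA1+ cells. The gates did not overlap, but the Thy1-SSEA1+ library of Control day 11 came near the GFP+ range. The log2 difference was -2.46 (SE 0.36, adjusted p = 0.00326), and the light chain B2m was lower by -2.25 (SE 0.29, adjusted p = 0.00218). Class I heavy chains are near-identical paralogs, and reads may be split among them. The peptide transporter Tap2 was lower by -1.91. Of 18 interferon response genes 9 were lower and 1 was higher, with a median of -0.75, and for 6 of the 18 no GFP+ library reached 1 FPKM. Of the other 12 genes 5 were lower and 1 was higher. Isg15, a ubiquitin-like protein induced by interferon, had 1.73, 1.12, 1.04, 0.315 and 0.197 FPKM in GFP+ cells, against 18.2, 6.34, 4.55, 2.45 and 2.03 FPKM in Thy1-SSEA1+ cells, a log2 difference of -1.76 (SE 0.24, adjusted p = 0.00272). Irf7 was lower by -1.72 and Stat2 higher by 0.52. In the list of immune cell genes 5 were tested, of which 1 was lower and 4 did not pass. For 2 of the 5 no GFP+ library reached 1 FPKM, and the lower gene was 1 of these. Of the other 3 genes none was called.

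Of 31 genes of the Nodal, BMP and TGF-beta pathway 16 were lower, 3 higher and 12 did not pass, with a median of -0.57. The ligands Nodal and Bmp4 were higher, at 1.08 (SE 0.25, adjusted p = 0.0154) and 1.39 (SE 0.42, adjusted p = 0.0355), and the inhibitory Smad7 was the third higher gene. Other ligands were lower, Tgfb3 at -1.78 and Inhba, which forms activin, at -1.21. Nodal had 10.7, 10.5, 14.0, 10.1 and 19.3 FPKM in GFP+ cells, against 2.58, 3.83, 3.69, 8.79 and 12.6 FPKM in Thy1-SSEA1+ cells. The receptor Tgfbr2 had 1.03, 1.53, 0.640, 1.54 and 0.688 FPKM in GFP+ cells, against 5.34, 12.03, 5.93, 4.66 and 9.21 FPKM in Thy1-SSEA1+ cells, a log2 difference of -1.97 (SE 0.23, adjusted p = 0.00169). The BMP antagonist Grem1 was lower by -1.89, a call lost without the Dppa2/4 day 11 pair (-1.78, adjusted p = 0.0555). The targets Id1, induced by BMP, and Lefty1, an inhibitor induced by Nodal, were lower, at -2.12 (SE 0.33, adjusted p = 0.00398) and -1.10 (SE 0.16, adjusted p = 0.00331).

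Of 21 FGF and MAPK feedback genes 9 were lower, 3 higher and 9 did not pass, with a median of -0.46. The receptor Fgfr1 had 37.8, 20.6, 30.7, 21.9 and 22.8 FPKM in GFP+ cells, against 95.4, 86.4, 74.7, 79.4 and 91.0 FPKM in Thy1-SSEA1+ cells, a log2 difference of -1.67 (SE 0.14, adjusted p = 0.00104). The phosphatase Dusp5 and the transcription factor Egr1, both induced by ERK, were lower by -1.76 and -1.64, while the feedback inhibitor Spry2 was higher at 0.72 (SE 0.07, adjusted p = 0.00136). In the Wnt pathway 11 of 22 tested were lower and 4 higher, with a median of -0.47. For 8 of the 22 no GFP+ library reached 1 FPKM, Fzd1 and Wnt5b among them, and the filter favours a lower GFP+ value there. Of the 13 genes that reached 1 FPKM in both gates 6 were lower and 3 higher. The receptor Fzd1 and the ligand Wnt5b were lower by -1.48 and -1.31, and the nuclear effector Lef1 was higher by 0.71, with 1.10, 1.47, 1.45, 2.15 and 7.46 FPKM in GFP+ cells against 0.539, 0.460, 0.297, 1.54 and 2.89 FPKM in Thy1-SSEA1+ cells.

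Threonine and glycine breakdown feeds the folate cycle of mouse pluripotent cells. Of 21 one-carbon, serine and threonine genes 11 were higher and 1 lower, with a median of 0.65. Tdh, the threonine dehydrogenase, had 35.5, 67.2, 18.0, 88.8 and 33.6 FPKM in GFP+ cells, against 4.37, 7.17, 4.27, 26.2 and 11.7 FPKM in Thy1-SSEA1+ cells. The ranges overlapped across pairs, GFP+ was higher within each, and the log2 difference was 2.17 (SE 0.26, adjusted p = 0.00185). Gldc, of the glycine cleavage system, and Mthfd2, of the mitochondrial folate cycle, were higher by 1.64 and 1.09. Glycolytic and hypoxia genes gave 8 higher, 4 lower and 14 not passed of 26, with a median of 0.10. The phosphofructokinase Pfkp was higher by 1.09 and the enolase Eno2 lower by -1.76.

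Genes that moved alike in 5 pairs with a mean of at least 5 FPKM were ranked. The 10 most decreased were Aldh3a1, Avil, Crym, Ly6a, Mgst1, Krt19, Dlk1, Sptssb, Anxa1 and S100a14, with log2 differences of -3.97 to -3.51. Sptssb reached at most 0.728 FPKM in GFP+ cells. It was thus tested through Thy1-SSEA1+ cells alone, and the filter favours a lower GFP+ value for it. Aldh3a1, an aldehyde dehydrogenase, had 21.7, 10.6, 10.9, 6.86 and 7.81 FPKM in GFP+ cells, against 248, 147, 125, 190.2 and 235 FPKM in Thy1-SSEA1+ cells. Crym, a thyroid hormone binding protein, had 16.0, 8.27, 8.50, 4.77 and 5.92 FPKM in GFP+ cells, against 256, 167, 148, 38.7 and 131 FPKM in Thy1-SSEA1+ cells. Anxa1, a calcium-dependent membrane protein, had 46.8, 57.8, 64.2, 33.5 and 22.8 FPKM in GFP+ cells, against 485, 967, 1509, 110.1 and 419 FPKM in Thy1-SSEA1+ cells. In none of these 3 did the gates overlap, and the Thy1-SSEA1+ library of Control day 11 was the lowest for Crym and Anxa1. Their adjusted p-values were 0.000710 for Aldh3a1, 0.000700 for Crym and 0.00163 for Anxa1. The 10 most increased were Gm10772, Snord59a, Snord45c, Dppa5a, Dnmt3l, Zfp42, Tcl1, Gm10351, Gm10139 and RP23-90I17.3.1, with log2 differences of 4.93 to 3.10. Snord59a and Snord45c are small nucleolar RNAs shorter than a sequenced fragment, and polyA libraries measure them poorly. Gm10351 (chr7:43099719-43099843) and Gm10139 (chr13:65512678-65512848) are short loci too, and Gm10772 and RP23-90I17.3.1 had no coordinates in the annotation used. In Thy1-SSEA1+ cells Gm10772 was listed at 0 in all libraries but Dppa2/4 day 14. Gm10351 was listed at 0 there in Dppa2/4 day 8 and both Control days.

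Whether the gates differed alike in both arms was tested over 3 Dppa2/4 pairs and 2 Control pairs. Day 8 was present in the Dppa2/4 arm alone. The arm term was not adjusted for a change of the gate difference with day, nor the day term for arm. Arm and day therefore cannot be fully told apart in either term. In the term of Dppa2/4 arm minus Control arm 2 genes were higher (0.013%) and 1 lower (0.00652%), together 0.0195% of those tested, and 1454 (9.47%) had an unadjusted p under 0.05. The 3 were Gm25108, AC120540.1 and AL805897.1, each with libraries at 0. Gm25108 had 0, 68.4, 71.6, 0 and 0 FPKM in GFP+ cells and 0, 40.1, 53.6, 82.0 and 100.1 FPKM in Thy1-SSEA1+ cells, a difference between arms of 6.91 (SE 0.28, adjusted p = 0.0139). Gm25108 is a small nucleolar RNA, a kind that polyA libraries measure poorly. AC120540.1 was 0 in all GFP+ libraries, and AL805897.1 was 0 in all Thy1-SSEA1+ libraries. Each was above 0 only in the 2 Control libraries of the other gate. Both thus entered the test only through the libraries that set their terms. Of the 25 naive factors the term was positive in 24, with a median of 0.91 against 0.02 for all genes. At an unadjusted p under 0.05 there were 13 of 25, and the smallest adjusted p was 0.364. The Control Thy1-SSEA1+ libraries had higher Esrrb, Sox2 and Nanog than the Dppa2/4 ones of the same gate, as the values above show. For the change per day 1 gene was higher (0.00652%), the small nucleolar RNA Snord80, and none lower, with 1326 genes (8.64%) at an unadjusted p under 0.05.

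To place the step to GFP, Thy1-SSEA1- cells were added for the 4 sets with all 3 gates (Dppa2/4 days 8, 11 and 14 and Control day 11, 12 libraries). For each gene the GFP+ step (GFP+ minus Thy1-SSEA1+) was set against the SSEA1+ step (Thy1-SSEA1+ minus Thy1-SSEA1-). Of 15753 genes tested the difference of steps was higher in 31 (0.197%) and lower in 74 (0.47%), and 2391 (15.2%) had an unadjusted p under 0.05. These calls rest on few sets. Without Dppa2/4 day 11 none were called in either direction, and without Control day 11, the set with the conflicting description, 15 were higher and 187 lower. A negative difference of steps picks, by its construction, genes that stand high in the shared Thy1-SSEA1+ gate.

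Several genes, Epcam and Krt19 of the epithelial list among them, were called lower. Epcam had 34.8, 47.4, 68.9 and 27.1 FPKM in Thy1-SSEA1- cells, 113, 149.6, 175 and 143 FPKM in Thy1-SSEA1+ cells and 105, 97.5, 95.2 and 92.6 FPKM in GFP+ cells of Dppa2/4 days 8, 11 and 14 and Control day 11. Thy1-SSEA1+ was the highest gate in each set, and the difference of steps was -2.30 (SE 0.36, adjusted p = 0.0353). Krt19 had 17.9, 29.3, 94.4 and 19.3 FPKM in Thy1-SSEA1- cells, 41.6, 86.2, 141 and 38.2 FPKM in Thy1-SSEA1+ cells and 6.81, 5.48, 10.3 and 1.30 FPKM in GFP+ cells, with a difference of steps of -4.54 (SE 0.52, adjusted p = 0.0248). Aldh1a1 had 17.3, 11.7, 11.0 and 10.5 FPKM in Thy1-SSEA1- cells, 29.7, 15.5, 19.9 and 11.2 FPKM in Thy1-SSEA1+ cells and 1.18, 0.689, 0.515 and 0.339 FPKM in GFP+ cells, a difference of steps of -4.02 (SE 0.27, adjusted p = 0.00250). Within the 4 sets the SSEA1+ step alone did not pass for Aldh1a1 (adjusted p = 0.0577) or Avil (adjusted p = 0.0906), nor the GFP+ step alone for Epcam (adjusted p = 0.0691). Over the 26 epithelial genes the median GFP+ step was -0.49 and the median SSEA1+ step 1.10, with 5 genes lower for the difference of steps. Over all genes the medians were -0.08 at the GFP+ step and 0.04 at the SSEA1+ step. Among called genes with a mean of at least 5 FPKM, the other lowest were S100a14, Avil and Dok2, with differences of steps of -5.28, -4.37 and -3.69.

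Alpl changed almost wholly at the SSEA1+ step. It had 32.6, 17.0, 27.5 and 23.4 FPKM in Thy1-SSEA1- cells, 96.1, 95.5, 143 and 116 FPKM in Thy1-SSEA1+ cells and 111, 119, 159 and 124 FPKM in GFP+ cells, a difference of steps of -1.94 (SE 0.29, adjusted p = 0.0321). Tbx3 changed at the GFP+ step. It had 4.91, 8.55, 5.86 and 4.47 FPKM in Thy1-SSEA1- cells, 1.76, 7.13, 9.72 and 9.69 FPKM in Thy1-SSEA1+ cells and 30.5, 75.5, 61.5 and 69.4 FPKM in GFP+ cells, with a difference of steps of 2.93 (SE 0.51, adjusted p = 0.0485). It was the one naive factor of 25 called, although the median of these factors was 2.03 at the GFP+ step and 1.20 at the SSEA1+ step. Fibroblast genes had negative medians at both, -1.42 at the GFP+ step and -2.08 at the SSEA1+ step, and none of 33 was called. Among called genes with a mean of at least 5 FPKM, the other highest were Gm24523, Rpl39l, 2410141K09Rik and Triml2, with differences of steps of 5.58, 3.63, 2.68 and 2.61. Gm24523 is a short locus (chr15:34440791-34440922). It had 15.6, 16.5, 12.6 and 10.1 FPKM in Thy1-SSEA1- cells and 10.7, 42.6, 11.3 and 5.87 FPKM in GFP+ cells, ranges that overlapped. In Thy1-SSEA1+ cells it had 1.48 and 6.64 FPKM on Dppa2/4 days 11 and 14. There it was practically 0 in Dppa2/4 day 8 and Control day 11. Rpl39l, a copy of the ribosomal protein gene Rpl39, may share reads with it.

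**Figure D5:**
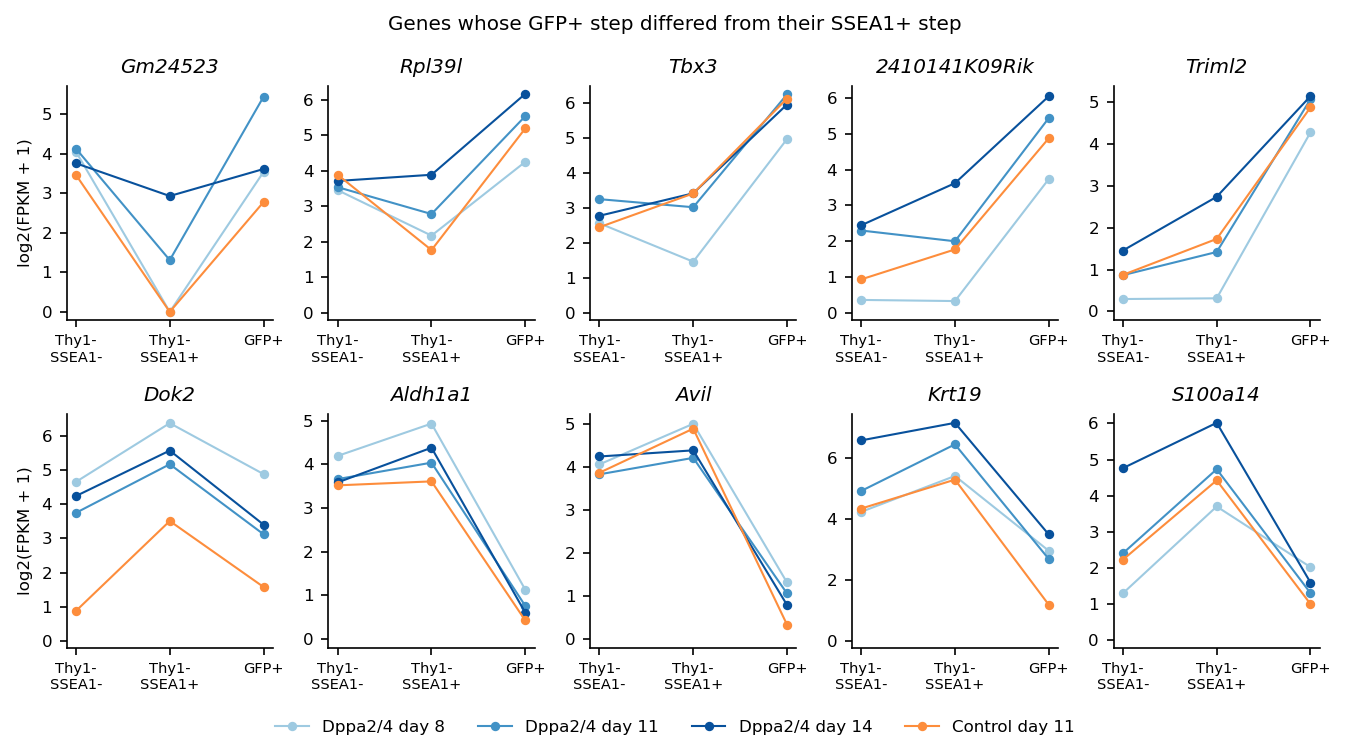
Level as log2(FPKM + 1) of the 10 genes named above by the rule, over the gates Thy1-SSEA1-, Thy1-SSEA1+ and GFP+ in the order of reprogramming, with 1 line per arm and day for 4 sets. Tbx3 is higher at GFP+ alone, while S100a14, Krt19, Avil, Aldh1a1 and Dok2 are highest in Thy1-SSEA1+ cells and lower in GFP+ cells.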

How the data were processed

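PolyA RNA of sorted mouse cells was sequenced, 1 library for each arm, day and gate. The authors deposited FPKM per gene, and per the submitters' processing notes the tools were TopHat2 and Cuffdiff on mm10, whose versions are not given in the sources used here. No counts were used. Of 33 value columns 3 were not used, because no sample of the labels matched them. The 37973 genes were joined by Ensembl identifier to GENCODE vM21 (32933 matched, 20229 of them protein coding), which gave the coordinates (GRCm38).

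Values were taken as log2(FPKM + 1), and a gene was tested where at least 2 libraries reached an FPKM of 1. Pairs of arm and day were a block in limma 3.58.1 (lmFit, eBayes with trend, R 4.3.3), with two-sided p-values adjusted by Benjamini-Hochberg at a threshold of 0.05. The fit was tested on simulated data. Arm, day and the 3 gates were tested with interaction terms or a contrast. The pairs come from the arm and day in the labels, and partners deviated alike from their gate means (correlations of 0.23 to 0.31). Among the 5 Thy1-SSEA1+ libraries, each GFP+ library correlated best with its own partner, in 5 of 5 pairs. Depth was implied in 2007 single-transcript genes of over 2000 bases, with 200 bases subtracted from the length, from the FPKM that 1 fragment is worth. Of low values, 88.3% to 94.8% lay within 0.15 of a whole fragment. FPKM gives no counting error per gene.

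The comparison and the 31 gene lists were chosen with earlier results of these data known. Genes named are the reprogramming factors, Nanog, Dppa2, Dppa4, Thy1, Fut4 and Fut9, the 3 largest called changes of each list, the 10 highest and 10 lowest with a mean of at least 5 FPKM, and up to 5 each way in the other contrasts. Further genes of the lists, and those with promoters shown, were chosen after their values were seen. Some genes that the rule or the lists hold are not reported here. Alternatives tried were no filter, a pseudocount of 0.1, a mean of at least 5 FPKM, quantile normalization, no trend, no block, each pair left out, either arm alone, days 11 and 14 alone and protein-coding genes alone.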

Additional observations from a re-analysis of the deposited data

Results flagged for a closer look

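In 135 groups of 5 pair differences (named genes and list medians), 5 had 1 pair far from the other 4 by Dixon's criterion, and chance alone gives about 1 in 20. Cd44 was lower by -1.52 on the log2 scale in the Control day 11 pair, against -3.49 to -3.05 in the other pairs. In that pair Crym differed by -2.78, against -4.25 to -3.92 elsewhere. The GFP+ library of this pair is the one with the conflicting description. In its GFP+ library Cd44 lay within the range of the other GFP+ libraries and Crym was the lowest of that gate, and in its Thy1-SSEA1+ library both genes were the lowest of that gate. Ccnd2 differed by -4.04 in the Control day 14 pair, against -3.27 to -3.02 in the others. Hoxa10 differed by -1.29 in the Dppa2/4 day 8 pair, against -2.94 to -2.55. The median of the extraembryonic genes was -1.40 in the Control day 14 pair, against -0.73 to -0.54.

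The difference between the gates was called different between the arms in 3 genes by the test of the arm term. It was 6.91 for Gm25108 (SE 0.28, adjusted p = 0.0139), 4.50 for AC120540.1 (SE 0.24, adjusted p = 0.0288) and -4.41 for AL805897.1 (SE 0.25, adjusted p = 0.0288), with 3 Dppa2/4 pairs against 2 Control pairs. AC120540.1 was listed at 0 in all GFP+ libraries and in the Dppa2/4 Thy1-SSEA1+ libraries, and had 19.6 and 23.9 FPKM in the Control Thy1-SSEA1+ libraries. AL805897.1 had 22.995 and 17.9 FPKM in the Control GFP+ libraries and was listed at 0 in all other libraries of the comparison. AC120540.1 and AL805897.1 thus passed the filter only through the libraries that set their arm terms. Gm25108 is a small nucleolar RNA, which polyA libraries measure poorly.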

How the results depend on the processing

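Without the block of arm and day the pairing is lost, and 1523 genes were higher and 2477 lower; for the difference of steps 0 were higher and 3 lower. Keeping genes with a mean of at least 5 FPKM gave 2391 higher and 2375 lower. The Control arm alone, 2 pairs with 1 residual degree of freedom, gave 6 higher and 4 lower, with 4494 genes at an unadjusted p under 0.05. Leaving out each pair gave 1965 to 2709 higher and 2583 to 3699 lower, least without Dppa2/4 day 11. For the arm term 5 genes were higher with no filter, 1 at a mean of 5 FPKM, 4 after quantile normalization and 4 without trend. Of that term 0 were lower with a pseudocount of 0.1 and 0 at a mean of 5 FPKM. Leaving out pairs gave 0 to 3 higher (0 without Control day 11) and 0 to 4 lower. For the change per day a pseudocount of 0.1 gave 2 higher and no filter 0, and leaving out pairs gave 0 to 5. For the difference of steps the count higher was 9 with a pseudocount of 0.1, 2 with no filter, 13 at a mean of 5 FPKM and 93 after quantile normalization, and the count lower was 9 with no filter. Leaving out sets gave 0 to 15 higher and 0 to 187 lower. The causes were not tested.

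Named genes kept direction and call in 1423 of 1575 refits, lost the call in 144 (95 of them in the Control arm alone), gained it in 1 and changed direction in 7, none of these called. Those 7 were Dppa2 (-0.62) and Dppa4 (-0.26) in the Dppa2/4 arm alone, Gm25108 (0.39) there, and Fut9 at -0.16 there, -0.023 without Control day 11, -0.063 without Control day 14 and -0.062 without Dppa2/4 day 11 (0.24 at most with a pair left out). With 1 library per arm, day and gate, the error rests on the likeness of pairs, and depth limits genes near 1 FPKM.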

Other observations

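Families outside the lists, chosen after their values were seen, also differed in composition. Calcium-binding membrane proteins were mostly lower in GFP+ cells. Of 9 annexins tested 7 were lower and 1 was higher, with a median of -1.52 against -0.06 for all genes, and Anxa3, Anxa5 and Anxa2 had log2 differences of -2.89, -2.30 and -2.08. S100 proteins, small calcium sensors, were lower in 9 of 11 tested and higher in none, with S100a16 at -3.10 and S100a6 at -2.94. Glutathione transferases, which detoxify by conjugation, were lower in 13 of 21 and higher in 2, with Mgst1 at -3.76 and Gsta3 at -2.31. Lysosomal cathepsins were lower in 8 of 11 and higher in 1, led by Ctsh at -2.08. Aldehyde dehydrogenases split, with 6 of 18 higher, 3 lower and 9 not passed, a share called near that of all genes. Aldh3a1 and Aldh1a1 were lower at -3.97 and -3.45, and the folate enzyme Aldh1l1 was higher at 1.15.

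Replication licensing genes were higher in 12 of 15 Mcm and Orc genes and lower in none, with a median of 0.95 and the origin recognition subunit Orc1 at 1.36. RNA helicases of the DEAD and DEAH boxes were higher in 22 of 52 and lower in none. Cytoplasmic ribosomal protein genes barely moved as a family, with 9 of 79 higher, 0 lower and a median of 0.09, and the largest differences belonged to the copies Rpl39l (2.40) and Rpl10l (2.25). Among tripartite motif proteins Trim6 was higher at 2.37 and Trim16 lower at -2.44, and 12 of 38 were higher and 9 lower. Background shares for these counts are 19.5% higher and 25.9% lower.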
